A study of Danio rerio with 6 samples.

Results

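Genes of the proteasome were examined in the telencephalon, a division of the forebrain, in male zebrafish exposed to the aromatase inhibitor fadrozole. They were chosen by gene symbol, as every probe set whose single platform symbol began with psma, psmb, psmc, psmd, psme, psmf or psmg, leaving out psmc3ip. The rule gave 49 genes, represented by 59 probe sets, of 8793 genes in all. It also took psme3ip1, whose product is named for its interaction with the activator psme3 and is not a subunit. The choice used symbols and no measured values, but it was made with earlier results of these data known.

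The study compared 3 control arrays with 3 arrays of fish kept with fadrozole at 200 µg/L for 10 days. All fish were sexually mature males, without a stated strain or age, and the labels name no vehicle for the controls. Each array held RNA from a pool of about 30 telencephalons, so the spread between single fish was not measured, and the independence of the pools within a group is not stated. The deposited value of a probe set is its ratio to the median of the 3 control arrays, so levels are given here as log2 ratios after the removal of each array's overall shift. Where a control array itself held that median, its level is 0.11 on control replicate 1, -0.25 on control replicate 2 and 0.14 on control replicate 3.

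The division removed the brightness of each probe set, so levels of different genes cannot be compared, and it could not be seen whether the 14 measured telencephalon markers of 20 listed were present. Brain aromatase, cyp19a1b, the target of the inhibitor, lay at 0.37, -0.13 and -0.04 on control replicates 1, 2 and 3 and at -0.73, -1.50 and -0.90 on fadrozole replicates 1, 2 and 3. Its groups did not overlap, with a difference of -1.11 ± 0.31 (SE) and an adjusted p of 0.945 in limma. Over all genes limma called 0.0% at an adjusted p of 0.05 and 4.09%, 360 genes, at an unadjusted p of 0.05.

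The proteasome is the large protease that degrades proteins tagged with ubiquitin. Its barrel-shaped core particle is built of outer rings of alpha subunits and inner rings of beta subunits, some of which carry the proteolytic sites. A regulatory particle, with a base of ATPases and a lid of other subunits, caps the core, recognises ubiquitin chains and unfolds substrates. In immune cells, and in other cells exposed to interferon, inducible beta subunits replace the constitutive catalytic ones, and the resulting immunoproteasome helps to make peptides for presentation by class I molecules of the major histocompatibility complex. In neurons the proteasome also takes part in the turnover of synaptic proteins.

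No proteasome gene passed the test between fadrozole and control, at a median 95% limma interval of 0.69 log2 units to either side of the measured difference. Over all 49 genes the median log2 difference, fadrozole minus control, was 0.06, and over all 8793 genes it was -0.0002. Of the 49, 35 had a difference above 0 and 14 below, against 50.0% above 0 over all genes. None of the 49 reached an unadjusted p of 0.05 in limma (0 of 49, against 4.09% of all genes). The count was also 0 when each gene was tested against its own spread alone, where 3.53% of all genes passed. The smallest unadjusted p among the members was 0.184, and every adjusted p was 0.999. In none did the arrays of a group all lie beyond those of the other (0 of 49, against 7.82% of all genes). A difference of at least 1.5-fold either way was measured for 3 members, against 26.9% of all genes, and all 3 were immune-type beta subunits.

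The excess of small positive differences was not there without control replicate 1, and was small without fadrozole replicate 3. Without the first, 21 of the 49 were above 0, with a median of -0.03, and without the second the values were 26 and 0.01. In pairs of arrays with the same replicate number, 8 members were higher on fadrozole in all 3 pairs and 2 were lower in all 3, against 12.4% of all genes in either direction. The array titles number the replicates but name no pairing.

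**Figure D1:**
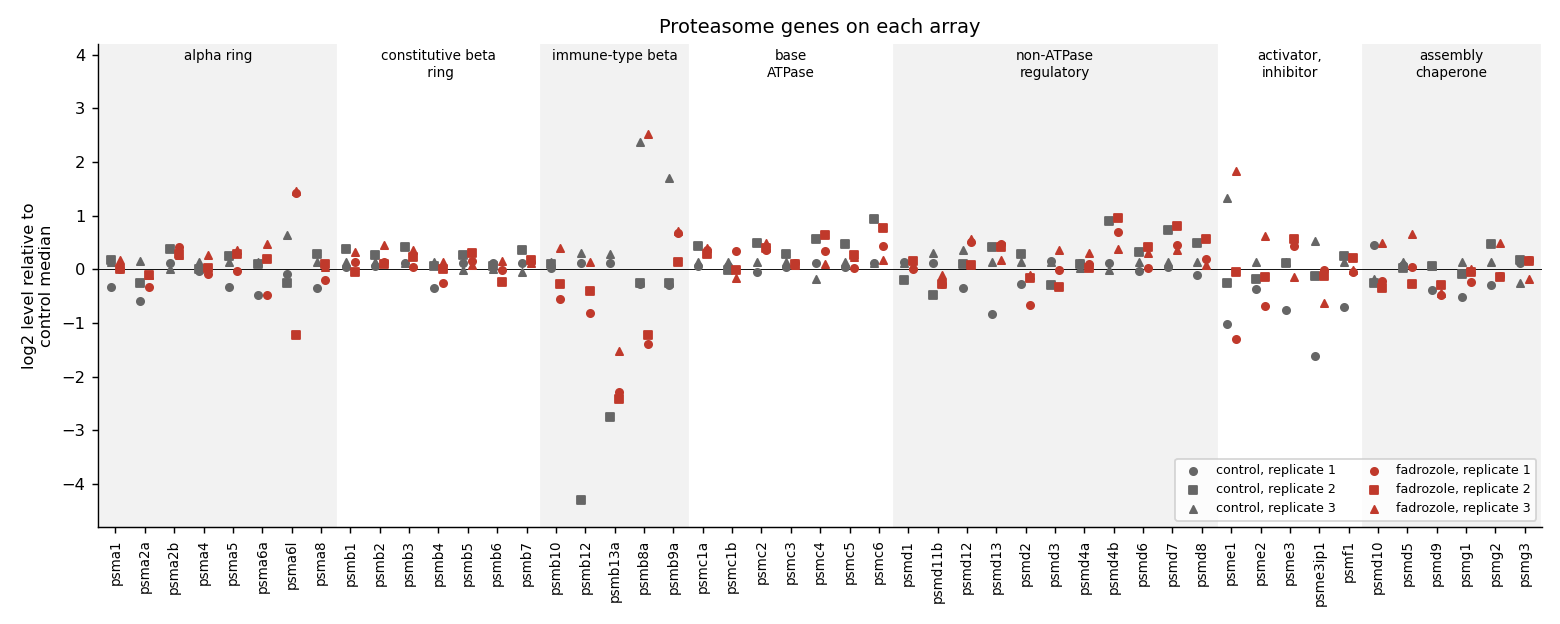
Log2 level of the 49 proteasome genes (horizontal axis, grouped by class) relative to the control median on each of the 6 arrays, in grey for control and red for fadrozole, with a marker shape for each replicate number. All genes lie within 1 log2 unit of 0 on all arrays except psma6l, psme1, psme3ip1, psmb8a, psmb9a, psmb12 and psmb13a.

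Of the 8 alpha-ring genes, which form the outer rings and the gate of the core, 7 had a difference above 0, with a median of 0.11 and a range from -0.04 to 0.46. The smallest unadjusted p belonged to psma5, which lay at -0.32, 0.24 and 0.14 on control replicates 1, 2 and 3 and at -0.02, 0.29 and 0.36 on fadrozole replicates 1, 2 and 3. Each fadrozole array was above the control array of the same number, but the groups overlapped, with a difference of 0.19 ± 0.27 (SE, unadjusted p of 0.511 in limma). For psma2b the control arrays gave 0.11, 0.38 and 0.01 and the fadrozole arrays 0.42, 0.29 and 0.27. Control replicate 2 fell among the fadrozole arrays, and the difference was 0.16 ± 0.23. The difference nearest 0 was that of psma4, at 0.03 ± 0.23, with control arrays at -0.04, 0.01 and 0.14 and fadrozole arrays at -0.09, 0.02 and 0.27.

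An exception in spread was psma6l, an additional psma6-type gene that was singled out after its values were seen. Control replicates 1, 2 and 3 gave -0.09, -0.25 and 0.65 and fadrozole replicates 1, 2 and 3 gave 1.43, -1.22 and 1.46. Fadrozole replicates 1 and 3 were the highest of the 6 arrays and fadrozole replicate 2 the lowest. The difference was 0.46 ± 0.79 over all arrays and 1.34 without fadrozole replicate 2 (p of 0.0173 before and 0.905 after adjustment in limma). Without fadrozole replicate 3 it was 0.005. In its sister gene psma6a, control replicates 1, 2 and 3 were at -0.47, 0.10 and 0.14 and fadrozole replicates 1, 2 and 3 at -0.47, 0.19 and 0.48, without that break on fadrozole replicate 2. It was set beside psma6l after its values were seen.

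The 7 constitutive beta-ring genes, psmb1 to psmb7, had a median difference of 0.002 and all lay between -0.09 and 0.08. Their limma intervals (95%) reached from -0.65 (psmb6) to 0.65 (psmb2) at the extremes, so differences up to about that size in either direction remain possible for them. Among the 3 genes of the catalytic subunits, psmb6 lay at 0.11, 0.06 and 0.01 on control replicates 1, 2 and 3 and at -0.01, -0.23 and 0.15 on fadrozole replicates 1, 2 and 3, a difference of -0.09 ± 0.23. The second, psmb7, differed by 0.001 ± 0.231, with control arrays at 0.11, 0.37 and -0.05 and fadrozole arrays at 0.13, 0.18 and 0.13. On all 3 fadrozole arrays psmb7 fell inside the range of the controls. The other catalytic gene, psmb5, had a difference of 0.05 ± 0.22, and its 6 arrays covered 0.30 log2 units in all.

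Among the structural beta genes, psmb2 lay at 0.06, 0.26 and 0.14 on the control arrays and at 0.14, 0.10 and 0.46 on the fadrozole arrays. Its difference was 0.08 ± 0.23, with fadrozole replicate 3 above the other 5 arrays. The standard errors of these genes come largely from the variance that limma shares across genes. For psmb7 the standard error from its own arrays alone was 0.12.

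**Figure D2:**
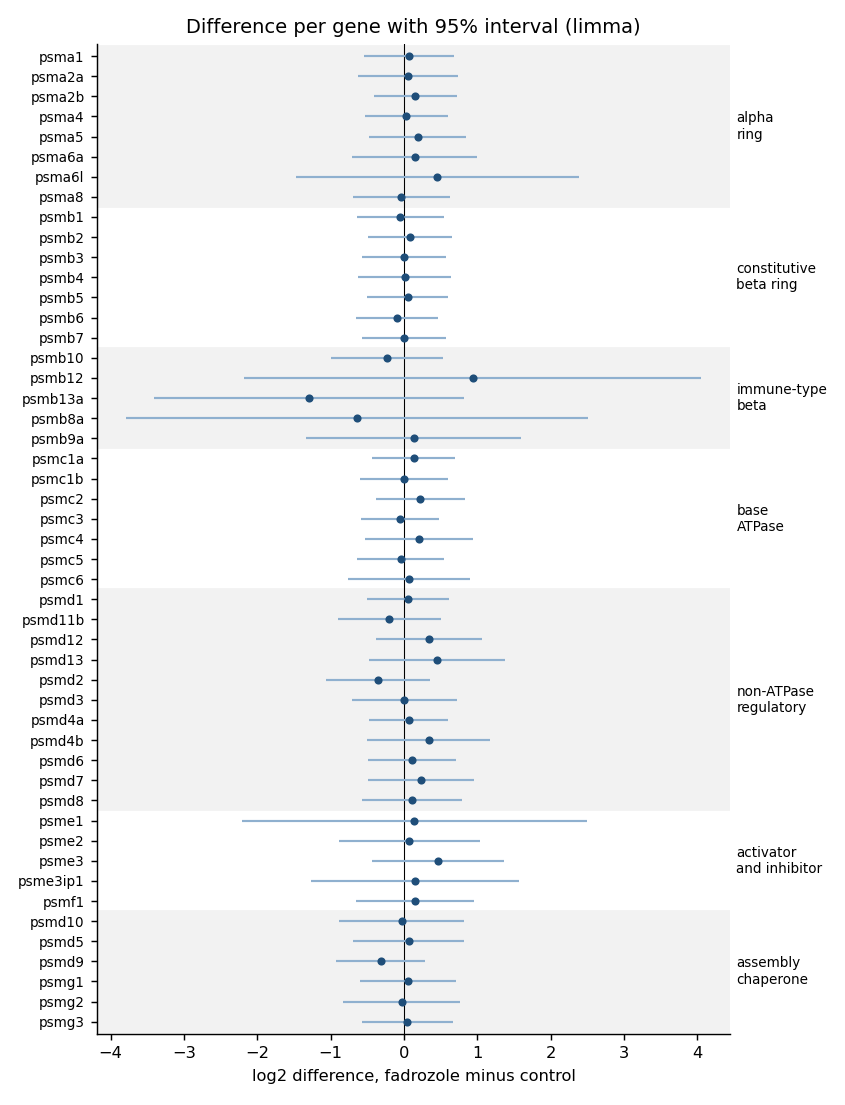
Log2 difference, fadrozole minus control, of each of the 49 genes with its 95% interval from limma (horizontal axis), in rows grouped by class. Every interval includes 0, and the widest belong to psmb8a, psmb12 and psme1.

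The base of the regulatory particle is a ring of ATPases that unfolds substrates. The mean of its genes was 0.05, 0.45 and 0.09 on control replicates 1, 2 and 3 and 0.28, 0.35 and 0.19 on fadrozole replicates 1, 2 and 3, highest on replicate 2 in each group. Of 7 psmc genes, 4 were above 0, with a median of 0.07 and a range from -0.05 to 0.22. On control replicates 1, 2 and 3 psmc2 lay at -0.05, 0.49 and 0.14 and on the fadrozole arrays at 0.35, 0.40 and 0.49. Control replicate 2 was as high as the highest fadrozole array, and the difference was 0.22 ± 0.25 (unadjusted p of 0.406 in limma). For psmc4 the control arrays gave 0.11, 0.56 and -0.19 and the fadrozole arrays 0.34, 0.64 and 0.11, a difference of 0.20 ± 0.30. In both groups psmc4 was highest on replicate 2 and lowest on replicate 3.

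The gene with the narrowest spread of all 49 was psmc3, whose SD between arrays of a group was 0.09, at percentile 0.92 of all genes. Nearest 0 was psmc1b, which 3 probe sets represent, at -0.002 ± 0.243. It lay at 0.06, -0.01 and 0.14 on control replicates 1, 2 and 3 and at 0.34, -0.01 and -0.15 on fadrozole replicates 1, 2 and 3. The differences of its probe sets were -0.16 and 0.20 for those with the plain suffix _at and -0.05 for the _s_at probe set, a suffix the array maker uses where a probe set can match several transcripts.

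Among 11 non-ATPase genes of the regulatory particle, 9 had a difference above 0, with a median of 0.11 and a range from -0.36 to 0.45. The smallest p was that of psmd2, a large scaffold subunit, which was one of the 2 below 0. It lay at -0.28, 0.28 and 0.14 on control replicates 1, 2 and 3 and at -0.66, -0.15 and -0.11 on fadrozole replicates 1, 2 and 3. In each same-numbered pair the fadrozole array was lower, by 0.25 to 0.43 log2 units, but control replicate 1 was below fadrozole replicates 2 and 3. The difference was -0.36 ± 0.29 (unadjusted p of 0.264 in limma).

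The lid subunit psmd13 had the highest difference of the class, 0.45 ± 0.38, from control arrays at -0.83, 0.41 and 0.14 and fadrozole arrays at 0.47, 0.42 and 0.17. Control replicate 1 alone lay low, and without it the difference was 0.08. The difference nearest 0 was 0.007 ± 0.291 for psmd3, at 0.15, -0.30 and 0.14 on the control arrays and -0.01, -0.33 and 0.36 on the fadrozole arrays. The other large scaffold subunit, psmd1, has a pair of probe sets and was at 0.13, -0.20 and 0.12 on the control arrays and at -0.003, 0.15 and 0.07 on the fadrozole arrays. Its probe sets differed in sign, at 0.17 for _s_at and -0.06 for _at. The ubiquitin receptor genes psmd4a and psmd4b had differences of 0.07 ± 0.22 and 0.34 ± 0.34.

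The class of activators and inhibitors held 5 genes, psme3ip1 among them, and all had a difference above 0. Their median was 0.15 with psme3ip1 and 0.15 without it. With it the median was -0.15 without control replicate 1 and 0.61 without control replicate 3. Over all arrays and without control replicate 3 that median was the value of psme3ip1 itself. The nuclear activator gene psme3 lay at -0.76, 0.11 and 0.14 on control replicates 1, 2 and 3 and at 0.44, 0.57 and -0.14 on fadrozole replicates 1, 2 and 3. Fadrozole replicates 1 and 2 were above all controls and fadrozole replicate 3 was below 2 of them, for a difference of 0.46 ± 0.37 (unadjusted p of 0.252 in limma). For psmf1, a proteasome inhibitor gene, control arrays gave -0.69, 0.26 and 0.14 and fadrozole arrays -0.05, 0.21 and -0.01, a difference of 0.15 ± 0.33. The 4 probe sets of psme3ip1 gave differences of 0.83, 0.06, -0.06 and -0.25, and their mean lay at -1.61, -0.12 and 0.52 on the control arrays and at -0.01, -0.13 and -0.62 on the fadrozole arrays.

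The genes psme1 and psme2 encode the partner subunits of the activator that interferon induces in mammals. For psme2 the control arrays gave -0.37, -0.19 and 0.14 and the fadrozole arrays -0.68, -0.15 and 0.63, a difference of 0.07 ± 0.39. In psme1, named after its values were seen, the control arrays were at -1.02, -0.25 and 1.33 and the fadrozole arrays at -1.30, -0.04 and 1.83, a difference of 0.14 ± 0.96. Both genes were lowest on replicate 1 and highest on replicate 3 in each group. For psme2 this order on the control arrays depends on the scaling. With plain median centring or no shift removed, 1 gene of the class was highest on replicate 3 of both groups, against 2 in the main scaling. In both genes the distance between arrays of a group was far wider than that between the groups.

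Assembly chaperones help to build the particles and leave them afterwards. The 6 measured, psmg1, psmg2, psmg3, psmd5, psmd9 and psmd10, had 3 genes above 0 and a median of 0.008. The regulatory-particle chaperone psmd9 had the smallest p of the class, with control arrays at -0.39, 0.07 and 0.07 and fadrozole arrays at -0.48, -0.28 and -0.44. It was lower in each same-numbered pair, and its probe sets gave -0.30 and -0.33, but control replicate 1 overlapped the fadrozole arrays. Its difference was -0.32 ± 0.25 (unadjusted p of 0.249 in limma).

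The core chaperone psmg1 lay at -0.51, -0.09 and 0.14 on the control arrays and at -0.25, -0.05 and 0.01 on the fadrozole arrays, with probe sets at 0.24 and -0.13. The difference nearest 0 was that of psmd10, known in mammals as gankyrin, at -0.03 ± 0.35, from control arrays at 0.45, -0.25 and -0.18 and fadrozole arrays at -0.21, -0.34 and 0.48. Of the 7 members with several probe sets, 3 had the same sign in all of them and 4 did not (psmc1b, psmd1, psme3ip1 and psmg1).

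The classes differed in how far arrays of the same group lay apart. The SD between arrays of a group had a median of 0.15 for constitutive beta genes, 0.19 for base ATPases, 0.26 for the alpha ring, 0.30 for non-ATPase and for chaperone genes and 0.50 for activators and inhibitors. Over all genes the median was 0.53 and the quartiles were 0.29 and 0.99. All 7 constitutive beta genes and all 7 base ATPases were below the median of all genes, as were 42 of the 49 members. The size of these values depends on the scaling: with plain median centring the medians were 0.30 for constitutive beta genes, 0.33 for base ATPases and 0.34 for the alpha ring, against 0.56 over all genes, and with no shift removed they were 0.30, 0.35 and 0.36, against 0.57. The members below the median of all genes then numbered 41 and 39. For the 5 immune-type beta genes the median was 1.25, at percentile 85.1 of all genes, and 4 of the 5 were above the median of all genes. Whether a wide spread went with a dim signal could not be seen, because the ratios hold no brightness.

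**Figure D3:**
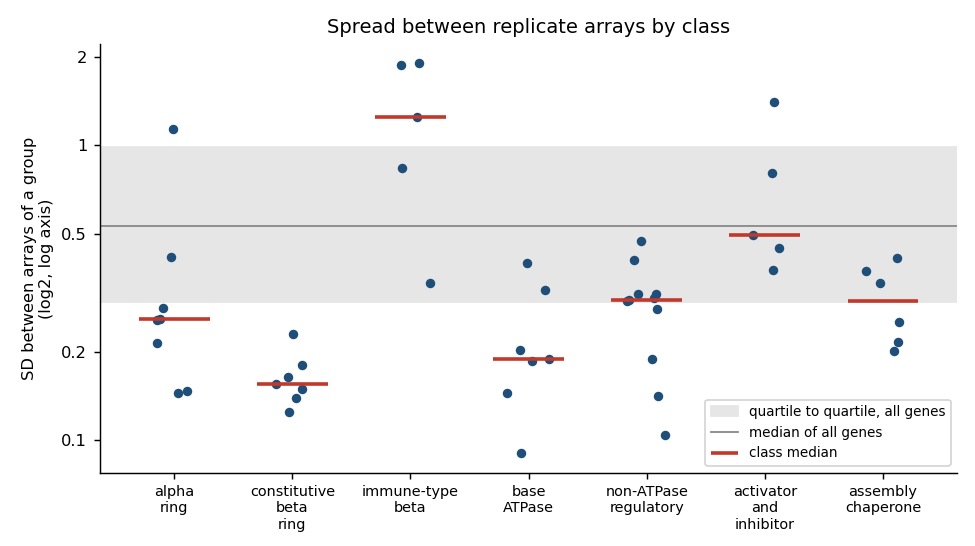
SD between arrays of the same group for each proteasome gene (log2 units, on a log axis), by class, with the class median as a red bar and the median of all genes as a line and the range between their quartiles as a grey band. Constitutive beta genes lie below the band, between 0.12 and 0.23, while psmb12 and psmb8a stand highest at 1.87 and 1.90.

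Levels of the core genes also moved together from array to array. Over the 105 pairs of the 15 alpha and constitutive beta genes the median Pearson correlation across the 6 arrays was 0.40, and over the 21 pairs of base ATPases it was 0.58. The median over all pairs of genes in the table was -0.002. All genes are not a like set in spread, with a median SD between arrays of a group of 0.53, against 0.18 for the core. For the 55 pairs of non-ATPase genes the median correlation was -0.04, and for the 15 pairs of chaperones -0.24. The 10 pairs of immune-type beta genes gave 0.45 and the 10 pairs of activators and inhibitors 0.36. All genes share the same 6 arrays and one shift per array, and the values depend on that shift: they were 0.75 for the core and 0.84 for the ATPases with arrays centred on their plain median, where the non-ATPase pairs gave 0.40, the chaperones 0.25 and all pairs of genes measured 0.07.

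The immune-type beta genes were the widest class in differences as well, from -1.30 to 0.94, with 2 above and 3 below 0 and a median of -0.23. That median turned to 0.24 without control replicate 3 and to 0.04 without fadrozole replicate 1. In the RefSeq table of the GRCz12tu assembly, psmb8a, psmb9a, psmb12 and psmb13a are neighbours by start position on a single chromosome, beside the antigen peptide transporter gene tap2a, and psmb10 lies on another chromosome. The inducible counterpart of psmb5 is psmb8a. It lay at -0.28, -0.25 and 2.37 on control replicates 1, 2 and 3 and at -1.39, -1.22 and 2.52 on fadrozole replicates 1, 2 and 3. Replicate 3 of each group stood more than 2 log2 units above the other arrays, and the difference between the groups was -0.64 ± 1.28 (unadjusted p of 0.635 in limma).

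The counterpart of psmb6 is psmb9a, at -0.30, -0.25 and 1.70 on the control arrays and at 0.68, 0.15 and 0.72 on the fadrozole arrays. Again replicate 3 was highest in each group, though on fadrozole by only 0.04 over replicate 1, and the difference was 0.13 ± 0.60. For psmb10, the counterpart of psmb7, the control arrays gave 0.02, 0.09 and 0.14 and the fadrozole arrays -0.54, -0.28 and 0.39. After the removal of the array shifts the psmb10 control arrays lay close together inside the wider span of the fadrozole arrays, a placing that depends on that removal. The difference was -0.23 ± 0.31, and -0.23 ± 0.37 with no shift removed.

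The remaining pair, psmb12 and psmb13a, are further beta genes of the same neighbourhood in the zebrafish assembly. On control replicates 1, 2 and 3 psmb12 lay at 0.11, -4.31 and 0.30 and on fadrozole replicates 1, 2 and 3 at -0.81, -0.40 and 0.14. The low value of control replicate 2 sets the difference of 0.94 ± 1.27, which was -0.56 without that array. In psmb13a the control arrays were at 0.11, -2.74 and 0.29 and the fadrozole arrays at -2.29, -2.42 and -1.52.

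Thus 4 of the 6 arrays were low for psmb13a, all 3 of fadrozole and control replicate 2, and 2 were near 0. Its difference of -1.30 ± 0.86 had the smallest p of the 49 genes, 0.184 in limma. Without control replicate 2 it was -2.28 ± 0.37, with a limma p of 0.00188 before adjustment and 0.508 after it. Within the slide run that holds replicates 1 and 3, which also leaves out that array, it was -2.11 ± 0.39 (unadjusted p of 0.00757, adjusted p of 0.617). Without control replicate 1 it was -0.85 ± 0.96, and without control replicate 3 it was -0.76 ± 0.91 (unadjusted p of 0.415 and 0.442 in limma). In the run that holds replicate 2 the fadrozole array was 0.32 higher than the control array. These slide runs were inferred from slide numbers that lie close together, and not from a label that names a run. Each psmb8 to psmb13 gene has a single probe set, so none of these patterns could be checked with another one.

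In all 5 immune-type beta genes replicate 3 was the highest array of both groups, a count made after the values were seen. The same held for 13.6% of all genes and for 11 of the 44 other members, psme1 and psme2 among them. With quantile normalisation, plain median centring or no shift removed the count was 4 of 5, with psmb10 as the exception. The other members then counted 4, 3 and 2 of 44, against 10.6%, 9.59% and 8.44% of all genes.

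The mean of markers of microglia and leukocytes was also highest on replicate 3 of each group, though single markers differed. Of 34 listed, 20 were measured, and their mean level was -0.34, -0.45 and 1.21 on control replicates 1, 2 and 3 and -0.17, -0.23 and 0.85 on fadrozole replicates 1, 2 and 3. Replicate 3 was the highest array of both groups for 12 of the 20, among them c1qc, a complement gene of microglia, and the actin-bundling leukocyte gene lcp1. For c1qc, picked after its values were seen, the control arrays gave 0.11, -0.84 and 2.18 and the fadrozole arrays 0.06, -0.25 and 1.14. Among the 8 others, the pan-leukocyte gene ptprc was highest on replicate 2 of each group, at 0.11, 1.12 and 0.11 on the control arrays and 2.28, 2.74 and 0.94 on the fadrozole arrays. It was the 1 marker of 20 past an unadjusted p of 0.05 in limma, against 4.09% of all genes, at 1.54 ± 0.56 (unadjusted p of 0.0342, adjusted p of 0.999). With each gene tested against its own spread alone 0 of the 20 passed, against 3.53% of all genes. The count was also 0 with quantile normalisation, the variance trend and no shift removed, where 178, 260 and 358 of all 8793 genes passed. It was 0 within the slide run that holds replicates 1 and 3 (521 of all genes). Without control replicate 1 or fadrozole replicate 2 it was 0 (397 and 428 of all genes). Without control replicate 2, control replicate 3 or fadrozole replicate 3 it was 2 (562, 380 and 370 of all genes). The macrophage receptor gene csf1ra, picked after its values were seen, was highest on control replicate 1, at 0.47, -1.84 and 0.14 on the control arrays and -0.90, -0.94 and 0.09 on the fadrozole arrays. The part of these cells in the values of the immune-type genes was not tested, and in pooled tissue more cells of a type cannot be told apart from more RNA per cell. The marker list itself had a median difference of -0.16 between the groups, with 7 of 20 above 0. Without control replicate 3 these values were 0.37 and 15 of 20, and without fadrozole replicate 1 they were 0.04 and 10 of 20.

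**Figure D4:**
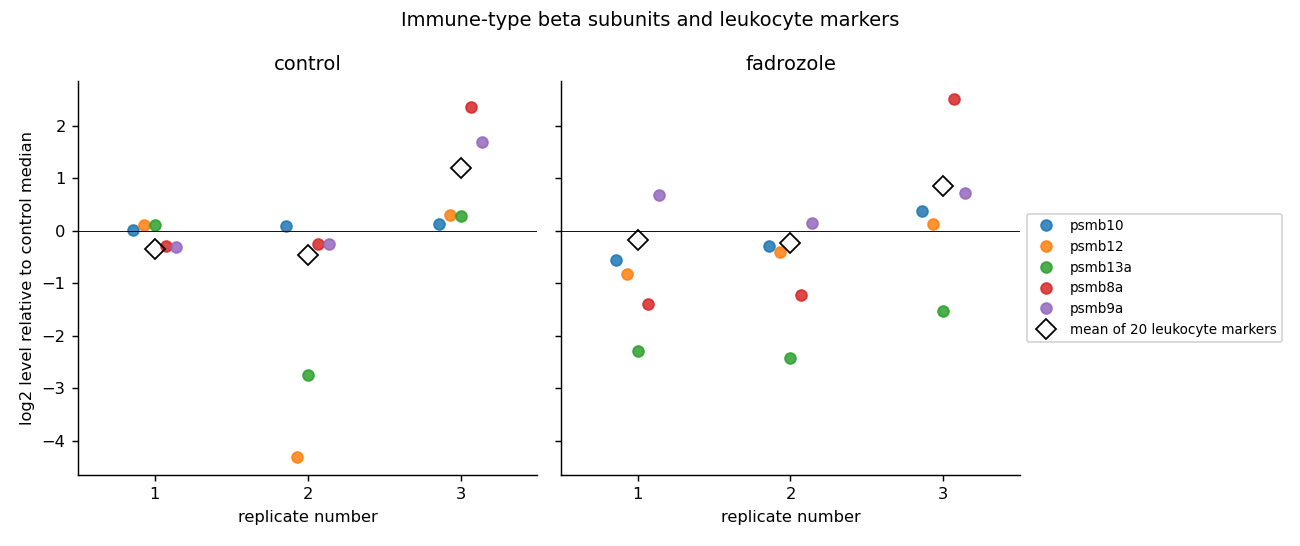
Log2 level relative to the control median of the 5 immune-type beta genes (coloured points, set side by side) and the mean of 20 leukocyte markers (open diamonds) by replicate number, for control on the left and fadrozole on the right. On replicate 3 of both groups psmb8a reaches 2.37 and 2.52 and the marker mean 1.21 and 0.85.

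Per array, the median level of immune-type beta genes minus that of constitutive beta genes was -0.09, -0.52 and 0.19 on control replicates 1, 2 and 3 and -0.95, -0.50 and 0.24 on fadrozole replicates 1, 2 and 3. The control mean was -0.14 ± 0.36 (SD) and the fadrozole mean -0.40 ± 0.60 (SD), so the groups lay closer together than the arrays within them. The same quantity for regulatory minus core genes was 0.08, 0.04 and 0 on the control arrays and 0.12, 0.11 and -0.09 on the fadrozole arrays. Here the 23 regulatory genes were the base ATPase and non-ATPase genes together with the activators and inhibitors, psme3ip1 among them. The core genes were the alpha ring and constitutive beta genes. The means of this quantity were 0.04 ± 0.04 (SD) and 0.05 ± 0.12 (SD), and no shift between these sets of genes was seen beyond that spread.

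Genes around the proteasome were also taken from lists. Of 16 measured proteasome partners, 7 had a difference above 0, with a median of -0.05. An unadjusted p of 0.05 in limma was reached by 0, against 4.09% of all genes. The groups did not overlap for 2 of the 16, against 7.82% of all genes. The smallest p in this list belonged to zfand5a, which encodes a ubiquitin-binding zinc finger protein. It lay at 0.11, 0.28 and 0.08 on the control arrays and at -0.69, -0.12 and -0.31 on the fadrozole arrays. All fadrozole arrays were below all controls, with a difference of -0.53 ± 0.25 (unadjusted p of 0.0814). The proteasome adaptor ecpas was at 0.54 ± 0.28 and the ubiquitin shuttle gene rad23ab at 0.96 ± 0.66, with overlap in both. A lid subunit gene outside the symbol rule, sem1, was named after its values were seen. It lay at 0.09, 0.40 and 0.08 on the control arrays and at 0.40, 0.41 and 0.50 on the fadrozole arrays, all just above the controls, with a difference of 0.25 ± 0.23 (unadjusted p of 0.318 in limma).

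For ubiquitin and its activating and conjugating enzymes, 15 of 28 genes were above 0, with a median of 0.01, and for deubiquitinases 11 of 25, with a median of -0.05. The conjugating enzyme gene ube2wb was at 0.11, 0.36 and -0.59 on the control arrays and at 1.78, 0.80 and 0.31 on the fadrozole arrays, a difference of 1.00 ± 0.47 with overlap. Another, ube2d1b, was at 0.11, 0.61 and -0.73 and at 1.17, 0.57 and 0.56, a difference of 0.77 ± 0.42 with overlap. The main ubiquitin-activating enzyme gene uba1 was at 0.11, 0.04 and -0.02 on the control arrays and at 0.25, 0.49 and 0.18 on the fadrozole arrays, all of which were higher, by 0.26 ± 0.22 (unadjusted p of 0.286 in limma). Among deubiquitinases, usp3 was at 0.50 ± 0.27, usp2a at -0.47 ± 0.30 and otub1b at 0.38 ± 0.36.

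The segregase that extracts ubiquitinated proteins from membranes and complexes, with its cofactors, had 8 of 15 genes above 0 and a median of 0.03. In it sel1l, of the endoplasmic reticulum degradation complex, was at 0.37 ± 0.24, ubxn6 at -0.43 ± 0.29 and plaa at 1.33 ± 0.91. Of these 68 genes of enzymes and cofactors, 0 reached an unadjusted p of 0.05 in limma, against 4.09% of all genes. In each of their lists 1 gene had no overlap (uba1, usp3 and sel1l), against 7.82% of all genes.

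Regulators of proteasome genes and genes of oxidative stress had 10 of 12 above 0, with a median of 0.28. At an unadjusted p of 0.05 in limma there were 0, against 4.09% of all genes. Of 24 genes listed, 12 were measured, and nfe2l1a and nfe2l1b were not among them. The measured genes of the Nrf family of transcription factors were nfe2l2a, whose mammalian counterpart switches on genes of the oxidative stress response, at 0.24 ± 0.32, and nfe2l3 at 0.80 ± 0.68. The glutathione synthesis gene gclm lay at 0.03, -0.07 and 0.14 on control replicates 1, 2 and 3 and at 0.56, -0.02 and 0.71 on fadrozole replicates 1, 2 and 3. Fadrozole replicates 1 and 3 were above the controls and replicate 2 was among them, a difference of 0.39 ± 0.28. The deglycosylase ngly1 was at 0.64 ± 0.50 and the peroxiredoxin prdx1 at 0.50 ± 0.40. With an array left out, 7 (without control replicate 1) to 10 (without control replicate 2) of the 12 were above 0.

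Genes of antigen presentation and interferon response had 7 of 18 above 0 and a median of -0.08. Without control replicate 3 these were 12 of 18 and 0.15, and within the slide run that holds replicates 1 and 3 they were 11 of 18 and 0.07. The peptide-trimming gene erap1b was the 1 member of 18 past an unadjusted p of 0.05 in limma, against 4.09% of all genes. Its difference was 1.50 ± 0.51 (unadjusted p of 0.0264, adjusted p of 0.999). It lay at 0.11, 1.17 and 0.07 on the control arrays and at 1.52, 1.48 and 2.82 on the fadrozole arrays. These groups did not overlap, which held for 1 of the 18 and for 7.82% of all genes. With each gene tested against its own spread alone 0 of the 18 passed an unadjusted p of 0.05, against 3.53% of all genes. The count was also 0 with quantile normalisation and with the variance trend, where 178 and 260 of all 8793 genes passed. Without control replicate 1 or fadrozole replicate 3 it was 0 (397 and 370 of all genes). Without control replicate 2, control replicate 3 or fadrozole replicate 1 it was 2 (562, 380 and 365 of all genes). The interferon regulatory factor irf1a, picked after its values were seen, was at 0.35, -3.82 and 0.14 on the control arrays and at -3.08, -4.45 and -0.57 on the fadrozole arrays. It was low on control replicate 2 and fadrozole replicates 1 and 2, which were also low for psmb13a. The list's other irf1 gene, irf1b, differed from it. It lay at 0.11, -0.99 and 1.21 on the control arrays and at 0.69, -0.42 and 2.59 on the fadrozole arrays, a difference of 0.84 ± 0.91. A link between these factors and psmb13a was not tested. The list's mean was highest on replicate 3 of each group, at 0.32 on control and 0.51 on fadrozole, and lowest on replicate 2, at -0.46 and -0.20. Replicate 3 was the highest array of both groups for only 6 of the 18, against 13.6% of all genes. The list's median was 0.11, -0.25 and 0.14 on control replicates 1, 2 and 3 and 0.03, -0.20 and 0.20 on fadrozole replicates 1, 2 and 3.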

How the data were processed

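RNA of pooled telencephalons was hybridised to 1-colour arrays after biotin labelling, per the labels' protocols. The deposited values are linear ratios: in all 15617 rows the median of the 3 control columns equalled 1. How the authors scanned, scaled and summarised the arrays is not given in the sources used here. No count or signal level was given, no filter on dim probe sets could be applied, and precision is limited by how few arrays there are.

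The ratios were turned to log2, and each array's shift, its median deviation from the probe-set means over 6 arrays, was removed. In replicate order the shifts came to -0.11, 0.25 and -0.14 (control) and -0.07, 0.15 and -0.09 (fadrozole). Leaving out 115 control probe sets kept 15502, of which the platform annotation from GEO names 10795 with a single symbol, 135 with several and 4572 with none. Symbols were updated through a RefSeq table of GRCz12tu, used for names and neighbours, which matched 10711. Probe sets were averaged per gene.

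Groups were compared over all 8793 genes in a two-sided limma test (lmFit, eBayes; limma 3.58.1, R 4.3.3) whose p-values were adjusted by Benjamini-Hochberg. The fit was tested on simulated data. A value after ± is the standard error unless SD is written, with n of 3 arrays per group. With 3 arrays against 3, the smallest exact permutation p is 0.1. Classes were described by counts and medians. The members and lists were chosen with earlier results of these data known. Array values are given for all immune-type beta genes, and per class for the pair with the smallest p, the gene nearest 0 and genes whose probe sets differ in sign. Each other list named its members past an unadjusted p of 0.05, or the 3 with the smallest p. Genes outside this rule were picked after their values were seen. Same-numbered arrays were checked for pairing, and alternatives changed the scaling, blocks, variance prior, probe sets and arrays used.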

Additional observations from a re-analysis of the deposited data

How the results depend on the processing

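Limma called 0 genes of the table at an adjusted p of 0.05 under each of 16 alternatives set in advance, and 0 without moderation of the variance, an alternative chosen after the data were seen. The median difference between regulatory and core genes and the medians of the alpha ring, of the non-ATPase genes and of immune-type beta genes moved by less than the SD between replicates in all alternatives run, but with an array left out the alpha ring ran from -0.028 to 0.20 and the immune-type genes from -0.56 to 0.24, turning in sign. The count of members above 0 ran from 21 to 39 and their median from -0.034 to 0.093 with an array left out. Members at an unadjusted p of 0.05 then ran from 0 to 1, against 365 to 562 of all 8793 genes. The 1 was psmb13a without control replicate 2 and psma6l without fadrozole replicate 2. Members without overlap ran from 1 to 10, where fewer arrays make such calls easier (15.6% to 22.4% of all genes). Medians ran from -0.073 to 0.10 for constitutive beta genes, from -0.0017 to 0.24 for base ATPases and from -0.22 to 0.068 for chaperones. They ran from -0.15 to 0.61 for activators and inhibitors, psme3ip1 among them, and from -0.67 to 0.28 for immune-type minus constitutive beta genes. In the larger slide run alone, 2 members reached an unadjusted p of 0.05, against 521 of all 8793 genes. There 16 members had no overlap (34.3% of all genes) and the constitutive beta median was 0.094. With the replicate block, the slide run block and the variance trend the members' differences and medians were as in the main fit. This was fixed in advance, for the blocks by the balanced design and for the variance trend because it changes only the variance prior. Standard errors and p-values did change. For psmb8a the standard error was 1.28 in the main fit and 0.36 with the replicate block (unadjusted p of 0.635 and 0.153 in limma). For psmb13a it was 0.86 in the main fit and 0.60 with the slide run block (unadjusted p of 0.184 and 0.0861 in limma). In each of these settings 0 of 49 reached an unadjusted p of 0.05. Over all 8793 genes 478 did so with the replicate block, 439 with the slide run block and 260 with the variance trend. Same-numbered arrays deviated together with r of 0.07, 0.19 and 0.09 over all genes and with r of 0.14, 0.38 and 0.64 over the 49 members. The main fit used no pairing. Over all genes each array correlated best with its own number. Over the members fadrozole replicate 1 correlated better with control replicate 2 (r of 0.25) than with control replicate 1 (r of 0.14). Of the 49 members, 17 kept the sign of their difference in all 16 alternatives, and the share over all genes is not given here. Most of the 17 were higher on fadrozole: psma2b, psma5, psma6l, psmc1a, psmc2, psmc4, psmd4b, psmd6, psmd7, psmd12, psmd13 and psme3. The lower ones were psmb10, psmb13a, psmd2, psmd9 and psmd11b. The blocks and the variance trend, counted among these alternatives, could not turn a sign. Without psme3ip1 34 of 48 were above 0, and without psmb10 the immune-type median was -0.25, both chosen after the data were seen. With plain median centring 30 members were above 0, against 45.2% of all genes. The causes were not tested.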
